A study of Mus musculus with 61 samples.

Results

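The genes described here are 6 that supply synaptic vesicles with the main fast transmitters of the brain. Slc17a7, Slc17a6 and Slc17a8 encode the vesicular glutamate transporters VGLUT1, VGLUT2 and VGLUT3. Gad1 and Gad2 encode the glutamate decarboxylases GAD67 and GAD65, which make GABA from glutamate, and Slc32a1 encodes the vesicular GABA transporter. They were chosen by name, as 6 of the 16358 genes that the array's probes name through a RefSeq accession, and they have 9 probes in all. The probe with the highest mean intensity was used for each gene, and each of these was well above background in all 61 fractions.

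A neuron that loads its vesicles with glutamate excites its targets, and the choice of transporter differs by region. VGLUT1 is known from the cortex, the hippocampus and the granule cells of the cerebellum, VGLUT2 from the thalamus, the hypothalamus, the midbrain and the hindbrain, and VGLUT3 from scattered neurons of several kinds, many of which release another transmitter too. GABA neurons are spread through nearly all regions and are dense in the striatum and in the granule cell and glomerular layers of the olfactory bulb.

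The fractions came from the brains of 6 untreated 8-week-old male C57BL/6J mice, an inbred strain, with 1 mouse per series and no other genotype or treatment. S (9 fractions, labelled 2 to 10 and called S1 to S9 here) and So (10) were cut sagittally from left to right, C (13) and Co (16) coronally from caudal to rostral, and H (6) and Ho (7) horizontally from dorsal to ventral, and So, Co and Ho were slightly oblique. Each fraction pooled 200 sections of 5 µm, 1 mm in all, so a value is a mean over every cell of a whole slab, and fewer cells of a type and less RNA per cell cannot be told apart. Of the fractions, 56 form the 28 pairs of corresponding positions in both mice of a plane (c1 to c13, h1 to h6 and s1 to s9), numbered in the cutting direction. The study matched the pairs by correlation of these same arrays, so fractions of a pair were alike by choice. A p-value over the pairs rests on the spread within pairs, pooled over all 28 pairs and all planes. Pairs of the same 2 mice count as independent in it, although their deviations were correlated (median 0.279). With 2 mice per plane, the p-value does not measure the spread between mice.

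Levels are log2 intensities minus the 75th percentile of the array, and since every probe binds with its own strength, only differences of 1 probe between fractions can be read, not the order of the genes. The 75th percentile lay between 737 and 1919 units, and 57.9% to 73.1% of the probes were well above background. The neuronal markers Snap25, Syt1, Stmn2 and Rbfox3 were well above background on all 61 arrays. Most region markers peaked in paired or neighboring coronal fractions of both mice. The medullary markers Hoxb3 and Slc6a5 were highest in C1 and Co2, Pcp2 of cerebellar Purkinje cells in C3 and Co5, the dopamine transporter Slc6a3 in C6 and Co7, the thalamic marker Slitrk6 in C8 and Co9, the striatal marker Gpr6 in C10 and Co11, the cortical marker Myl4 in C11 and Co12, and Doc2g of the olfactory bulb in C13 and Co15. Lamp5, also listed as a cortical marker, was instead highest in C1 and Co1, Th, listed with Slc6a3, in C13 and Co15, and Prkcd, listed with Slitrk6, in C7 and Co9. C3 and Co5, like C7 and Co9, belong to different pairs. C and Co were scanned on different days, and C13 was scanned with the horizontal series.

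For the vesicular glutamate transporters, which are compared most closely here, the 250 bases before a RefSeq transcription start (mouse build GRCm38.p6) are shown with Gad1 beside them. Capitals mark GC boxes (GGGCGG) and TATA boxes (TATAAA) on either strand. The letters of a TATA box on the opposite strand read TTTATA, and 2 of the 3 GC boxes of Slc17a7 overlap by 1 base.
Slc17a7, chr7:45163671-45163920, plus strand: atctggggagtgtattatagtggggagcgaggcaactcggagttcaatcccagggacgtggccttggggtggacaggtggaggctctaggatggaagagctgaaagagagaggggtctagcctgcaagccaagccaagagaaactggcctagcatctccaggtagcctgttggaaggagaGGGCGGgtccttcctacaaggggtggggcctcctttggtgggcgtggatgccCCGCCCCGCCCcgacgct
Slc17a6, chr7:51621580-51621829, plus strand: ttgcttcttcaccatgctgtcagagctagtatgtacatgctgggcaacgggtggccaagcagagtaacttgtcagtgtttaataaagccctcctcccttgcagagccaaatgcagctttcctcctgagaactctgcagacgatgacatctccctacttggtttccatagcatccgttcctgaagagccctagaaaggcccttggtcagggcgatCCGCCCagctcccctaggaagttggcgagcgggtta
Slc17a8, chr10:89621250-89621499, minus strand: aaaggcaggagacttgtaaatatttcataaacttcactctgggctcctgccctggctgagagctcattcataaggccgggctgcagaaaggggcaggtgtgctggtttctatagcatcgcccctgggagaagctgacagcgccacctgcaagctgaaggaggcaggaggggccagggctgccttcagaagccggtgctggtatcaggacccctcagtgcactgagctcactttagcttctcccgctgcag
Gad1, chr2:70561879-70562128, plus strand: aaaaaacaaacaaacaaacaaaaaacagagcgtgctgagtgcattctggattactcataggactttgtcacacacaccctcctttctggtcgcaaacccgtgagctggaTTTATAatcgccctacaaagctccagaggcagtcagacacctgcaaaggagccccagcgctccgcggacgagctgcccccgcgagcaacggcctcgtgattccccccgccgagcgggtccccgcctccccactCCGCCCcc

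Of 32841 mouse promoters of this length, 32.7% held a GC box and 12.4% a TATA box. Slc17a7 held 3 GC boxes, while Slc17a6 and Gad1 held 1 each and Slc17a8 held 0. A second start of Slc17a6 and one of Slc17a8, and the starts of Gad2 and Slc32a1, held neither motif. The share of G and C was 61.2% for Slc17a7, 53.2% for Slc17a6, 57.2% for Slc17a8 and 58% for Gad1, against a median of 52.4% over all promoters. It was 41.2% at the second start of Slc17a6, 44.8% at that of Slc17a8, 64% for Gad2 and 62.4% for Slc32a1. These are descriptions of letters in a fixed window.

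From the hindbrain to the cortex, Slc17a7 and Slc17a6 changed in opposite directions. In the C mouse, Slc17a7 went from −3.69 in C1 to 2.55 in C11, and Slc17a6 from 2.95 in C1 to −0.26 in C11. In the Co mouse, Slc17a7 went from −2.09 in Co1 to 1.99 in Co12, and Slc17a6 from 2.75 in Co1 to −0.35 in Co12. So the caudal end, where the medullary markers peaked, had the lowest Slc17a7 and the highest Slc17a6 of both series, and the fractions with the most Myl4 had the highest Slc17a7 and the lowest Slc17a6.

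The change of Slc17a7 was stepwise. It rose from −3.69 in C1 to 0.05 in C2, stayed between 0.05 and 0.28 in C2 to C4, where the cerebellar markers are high, and reached 1.41 in C5. Co1 and Co2 lay at −2.09 and −1.89, Co3 to Co5 between −0.14 and −0.05, and Co6 at 0.55. Towards the olfactory bulb it fell again, to 0.98 in C13 and 0.92 in Co16. Slc17a6 instead stayed between 1.79 and 2.34 from C2 to C8 and dropped to 1.12 in C9 and 0.04 in C10, just rostral of the thalamic peak. In Co it was 2.36 in Co9, 1.52 in Co10 and 0.17 in Co11.

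**Figure D1:**
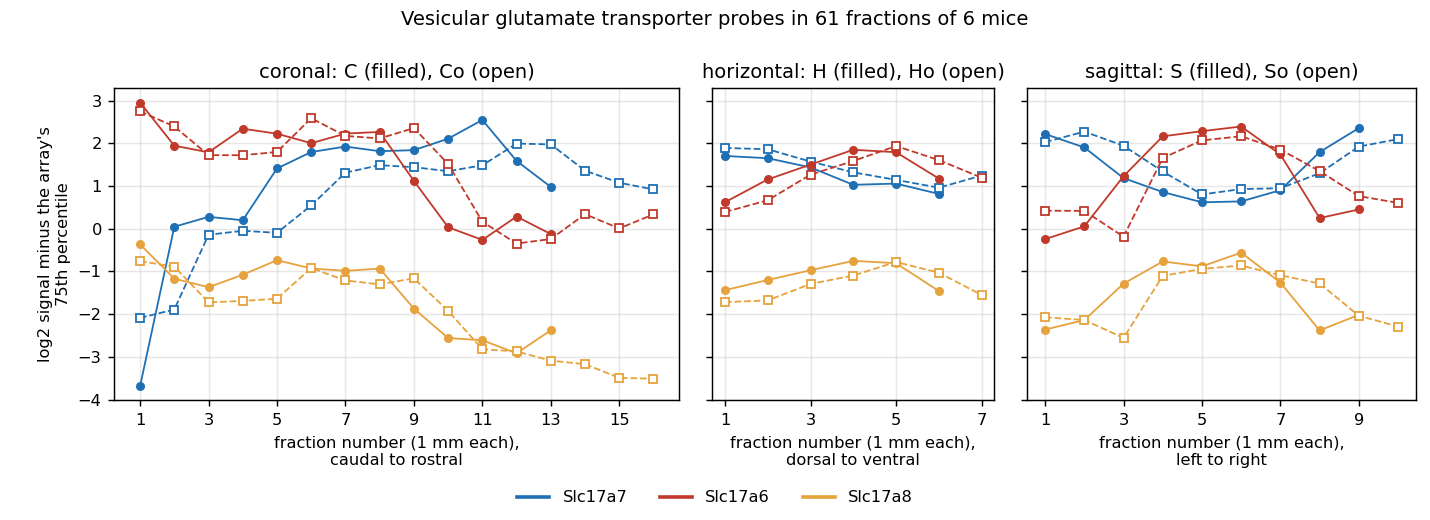
Level of the probes of Slc17a7 (blue), Slc17a6 (red) and Slc17a8 (orange), in log2 signal minus the array's 75th percentile, against the fraction number in the cutting direction, with 1 panel per plane, filled points for mice C, H and S and open points for Co, Ho and So. Slc17a7 runs from −3.69 in C1 to 2.55 in C11 while Slc17a6 runs from 2.95 to −0.26, and in the sagittal plane the blue curves dip in the middle fractions where the red and orange curves peak.

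Along the left to right axis the same opposition appeared around the midline. Slc17a6 was highest in S6 (2.39) and So6 (2.17), and lowest in S1 (−0.24) and So3 (−0.19). Slc17a7 was lowest in S5 (0.62) and So5 (0.80), and highest in S9 (2.36) and So2 (2.27). The medial fractions, in which Slitrk6 peaked (S5 and So6), were thus high in Slc17a6 and low in Slc17a7, and both sides were the reverse. Prkcd, the other thalamic marker listed, peaked in S7 and So7.

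From dorsal to ventral the spans were smaller. Slc17a7 was highest in the first fraction of both mice, 1.70 in H1 and 1.89 in Ho1, and lowest in H6 (0.82) and Ho6 (0.96). Slc17a6 was lowest in H1 (0.62) and Ho1 (0.39) and highest in H4 (1.85) and Ho5 (1.94), the fractions in which Slitrk6 peaked, and it fell again to 1.18 in H6 and 1.20 in Ho7. Prkcd peaked in H4 and Ho4.

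Within each of the 6 series, Slc17a7 and Slc17a6 were negatively correlated over the fractions, with Pearson's r of −0.54 in C (n = 13), −0.61 in Co (n = 16), −0.59 in H (n = 6), −0.88 in Ho (n = 7), −0.95 in S (n = 9) and −0.92 in So (n = 10). Spearman's rho ran from −0.89 in So to −0.47 in C. Without the 2 fractions farthest from the median of Slc17a6, r was −0.17 in H, between −0.55 and −0.49 in C and Co, and between −0.98 and −0.85 in Ho, S and So. Fractions of a series share 1 mouse and neighbors share tissue borders and mostly a slide, so these values carry no p. In C5 to C8 and Co6 to Co9, high Slc17a6 (2.00 to 2.59) met Slc17a7 levels of 0.55 to 1.92. The part of these fractions in the coronal r was not tested, and r in H was about as weak.

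**Figure D2:**
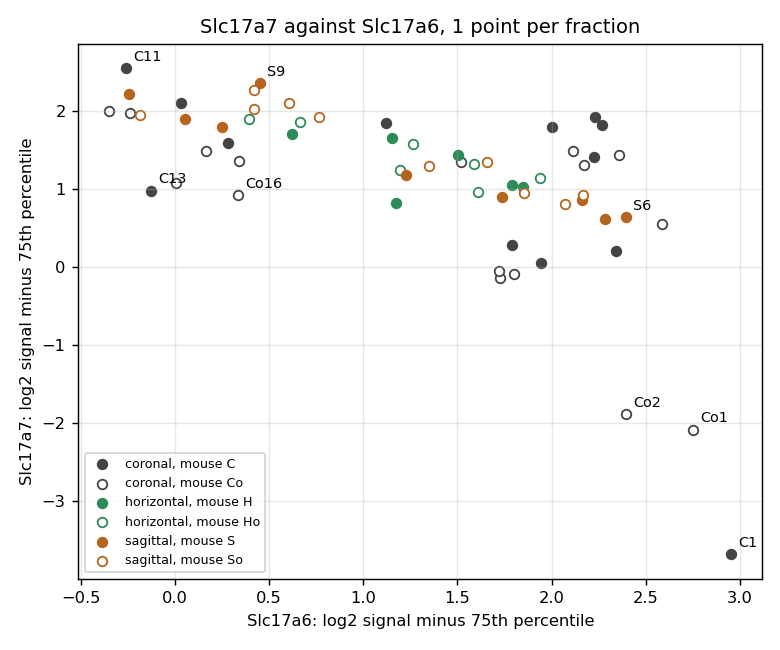
Level of Slc17a7 against that of Slc17a6 (both log2 signal minus the array's 75th percentile), 1 point for each of the 61 fractions, with black for coronal, green for horizontal and brown for sagittal series and open points for the oblique mice. C1, at 2.95 and −3.69, lies far to the lower right, C11, at −0.26 and 2.55, at the upper left, and the sagittal points run down a line from S9 to S6.

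Over the 28 pairs, 5 of the 6 genes varied by more than the spread within pairs (moderated F test of limma with Benjamini-Hochberg adjustment over all probes tested, threshold 0.05). As 61.2% of all 36519 probes passed, this count alone does not set the genes apart. Their F values did differ in rank: F was 34.4 for Slc17a6 (adjusted p = 6.40e-14), above 99.2% of all probes tested, 17.6 for Slc17a7 (1.51e-10, above 96.3%), 16.3 for Slc17a8 (3.58e-10, above 95.8%), 14.9 for Gad1 (9.72e-10, above 95.1%) and 9.11 for Slc32a1 (2.28e-07, above 89.1%). Gad2 had an F of 1.85 (adjusted p = 0.0790) and did not pass. With the mouse added as a block, Gad2 passed too, with F = 6.54 (adjusted p = 9.80e-06, limma). That F also counts differences between the whole series S, Co and Ho, so it does not measure position alone. The means of Gad2 over the pairs were 0.94 in S, 2.42 in Co and 1.80 in Ho.

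The coronal ends were compared as the 8 fractions of c10 to c13 against the 8 of c1 to c4. Slc17a7 lay between 0.98 and 2.55 rostrally (median 1.54) and between −3.69 and 0.28 caudally (median −0.07). The groups did not overlap, and the gene was higher rostrally by 2.31 ± 0.17 (log2, SE), or 4.96-fold (adjusted p = 4.80e-13, limma). Slc17a6 lay between −0.35 and 0.34 rostrally (median 0.02) and between 1.72 and 2.95 caudally (median 1.87). It was lower rostrally by 4.20-fold, a log2 difference of −2.07 ± 0.11 (adjusted p = 1.65e-16, limma), again without overlap. The probe of Slc17a8 differed by −1.61 ± 0.13 (adjusted p = 2.95e-12, limma), without overlap. Overlap was not counted over all probes, here or in the comparisons below, so a lack of it does not set the genes apart.

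In the C and the Co mouse alone, the differences were 2.60 and 2.02 for Slc17a7, and −2.27 and −1.87 for Slc17a6. Of the GABA genes, Gad1 was higher rostrally by 0.93 ± 0.09, or 1.90-fold (adjusted p = 1.65e-10, limma), while Gad2 (0.48 ± 0.28, adjusted p = 0.165) and Slc32a1 (0.15 ± 0.08, adjusted p = 0.108) did not pass. With the mouse as a block, the adjusted p of Gad2 was 0.0138. Slc17a8 is counted here by its brighter probe. Its second probe differed by 0.37 ± 0.19 (adjusted p = 0.119, limma). Against the 2 genes higher and the 2 lower of 6 stand 19.9% of all probes higher and 27.8% lower rostrally, and the median difference over all probes was −0.11. Scaling to the median of each array moved that median by 0.15 and turned the share of higher among all called probes from 41.8% to 59.0%. Under that scaling the difference of Slc32a1 was 0.30 (adjusted p = 0.00236), and the 4 called genes kept their directions.

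Oligodendrocyte markers moved with this contrast. All 4 of these markers, among them Mbp, Mog and Mag, were lower rostrally, by 1.03 to 1.76 (log2), and their summed level (log2 of the sum of the linear levels) lay between 6.46 and 7.44 rostrally and between 7.82 and 8.48 caudally, all 4 being well above background on all 61 arrays. Of the 4 neuronal markers, 1 was higher and 2 were lower rostrally, and their summed level overlapped, at 6.56 to 7.22 rostrally and 6.44 to 6.79 caudally. Astrocyte markers were lower rostrally in 2 of 3, with a summed level of 3.01 to 3.74 against 3.79 to 4.25, choroid plexus markers in 4 of 4, with 0.08 to 1.62 against −0.26 to 4.55, and blood markers in 2 of 2, with 0.53 to 2.93 against 2.07 to 3.48. The part of these cells in the differences was not tested.

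The middle of the coronal axis (10 fractions of c5 to c9, which hold the thalamus and midbrain) was set against the average of both ends (16 fractions). The 3 glutamate transporters were all higher in the middle than this average, Slc17a7 by 1.00 ± 0.13, Slc17a6 by 1.01 ± 0.09 and Slc17a8 by 0.85 ± 0.10, with adjusted p (limma) of 5.54e-07, 7.73e-11 and 7.44e-08. Gad1 and Slc32a1 were lower there, by −0.49 ± 0.07 and −0.34 ± 0.06 (adjusted p of 1.82e-06 and 5.31e-05, limma), and neither passed when fractions were paired by number (−0.29 and −0.28, adjusted p of 0.10001 and 0.0949, limma). The middle did not stand above both ends: the mean of Slc17a7 was 1.49 there and 1.64 rostrally, and that of Slc17a6 was 2.06 there and 2.08 caudally. Gad2 differed by 0.02 ± 0.23 (adjusted p = 0.966, limma). All 6 genes overlapped between the groups, and Slc17a7 spanned 0.55 to 1.92 in the middle against −3.69 to 2.55 at the ends. Over all probes 15.5% were higher and 19.5% lower in the middle. Astrocyte markers were lower in the middle in 2 of 3 (summed level 3.09 to 3.68 against 3.01 to 4.25) and blood markers in 2 of 2 (0.71 to 2.46 against 0.53 to 3.48), while choroid plexus markers were higher in 3 of 4 (−0.54 to 3.85 against −0.26 to 4.55). Their part in these differences was not tested.

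In the sagittal plane, s1, s2, s8 and s9 (lateral, 8 fractions) were set against s4 to s6 (medial, 6 fractions). Slc17a7 lay between 1.79 and 2.36 laterally (median 2.02) and between 0.62 and 0.95 medially (median 0.83). It was higher laterally by 1.26 ± 0.18, or 2.40-fold (adjusted p = 3.41e-06, limma). Slc17a6 lay between −0.24 and 0.76 laterally (median 0.33) and between 1.85 and 2.39 medially (median 2.16), a difference of −1.89 ± 0.12, or 3.71-fold lower (adjusted p = 6.04e-13, limma). Neither gene overlapped between the groups, and nor did Slc17a8 (−1.39 ± 0.14, adjusted p = 5.41e-09, limma) or Slc32a1 (−0.58 ± 0.08, adjusted p = 3.21e-06, limma). The share of all probes without overlap is not known. Gad1 was lower laterally by −0.40 ± 0.09 (adjusted p = 0.00182, limma; 0.1002 with fractions paired by number) with overlapping groups, and Gad2 differed by −0.81 ± 0.31 (adjusted p = 0.0614), or 0.000750 with the mouse as a block.

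Thus 1 of the 6 genes was higher and 4 were lower laterally, where 9.08% of all probes were higher and 10.5% lower. Scaling to the median of each array moved the median difference of all probes by 0.11 and the share of higher among the called probes from 46.4% to 68.3%, and the 5 genes kept their directions. All 4 oligodendrocyte markers were lower laterally (by 0.65 to 1.16), with a summed level of 6.09 to 7.51 laterally and 7.72 to 8.15 medially, and 3 of the 4 neuronal markers were higher laterally, with a summed level of 6.97 to 7.42 against 6.85 to 7.03. Their part was not tested.

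For the horizontal plane, h1 and h2 (dorsal, 4 fractions) were set against h5 and h6 (ventral, 4 fractions). Slc17a6 was 0.62 in H1, 1.15 in H2, 0.67 in Ho2 and 1.27 in Ho3 dorsally, and 1.79 in H5, 1.18 in H6, 1.61 in Ho6 and 1.20 in Ho7 ventrally. The groups overlapped, and the gene was lower dorsally by −0.52 ± 0.15 (adjusted p = 0.0181, limma). Slc32a1 was lower dorsally by −0.54 ± 0.11 (adjusted p = 0.000657, limma). Slc17a7 was 1.70 in H1, 1.65 in H2, 1.86 in Ho2 and 1.57 in Ho3 dorsally, and 1.06 in H5, 0.82 in H6, 0.96 in Ho6 and 1.25 in Ho7 ventrally. Its groups did not overlap, but its difference of 0.68 ± 0.24 missed the threshold (adjusted p = 0.0521, limma), and with the mouse as a block it had an adjusted p of 0.0297. That SE rests on the spread pooled over all planes. The median SD within pairs of Slc17a7 was 0.08 in the horizontal plane and 0.31 in the coronal.

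Without the mouse block, 0 of the 6 genes were called higher and 2 lower dorsally, against 5.77% and 8.44% of all probes. The mouse block raised the number of all probes called from 5190 to 9919 and the genes called from 2 to 4, the added ones being Slc17a7 and Gad2 (adjusted p = 0.0192). Leaving out H1, H2, H5 or Ho7 in turn, Slc17a6 no longer passed, with an adjusted p of up to 0.0801. With the slide as a random block, fewer of the genes were called dorsally than without a block. Scaling to the median changed the share of higher among the called probes from 40.6% to 55.9%. All 4 oligodendrocyte markers were lower dorsally, with a summed level of 5.73 to 7.33 against 7.44 to 7.79 ventrally, and 2 of the 4 pituitary markers were lower dorsally, with a summed level of −5.72 to −5.41 against −4.04 to 0.56 ventrally. The 4 choroid plexus markers were lower dorsally too (−0.72 to 2.62 against 1.88 to 2.61), and 3 of the 4 neuronal markers were higher (7.07 to 7.27 against 6.58 to 6.82). The pituitary markers were well above background on 10 to 22 of the 61 arrays, and the part of these cells was not tested.

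The left and right sides (s1 to s4 against s6 to s9) gave a check of the sectioning. Of the 6 genes, 0 were called (limma; 1 of 6, Slc17a6, at an unadjusted p below 0.05, and 0 of 6 by the analysis of variance without moderation), with differences between −0.28 and 0.41. Over all probes, 50 were called, or 0.137%, and 2740 had an unadjusted p below 0.05. Not every region marker passed this check: 2 of the 3 hypothalamic markers and 1 of the 2 of midbrain dopamine neurons were called lower on the left.

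**Figure D3:**
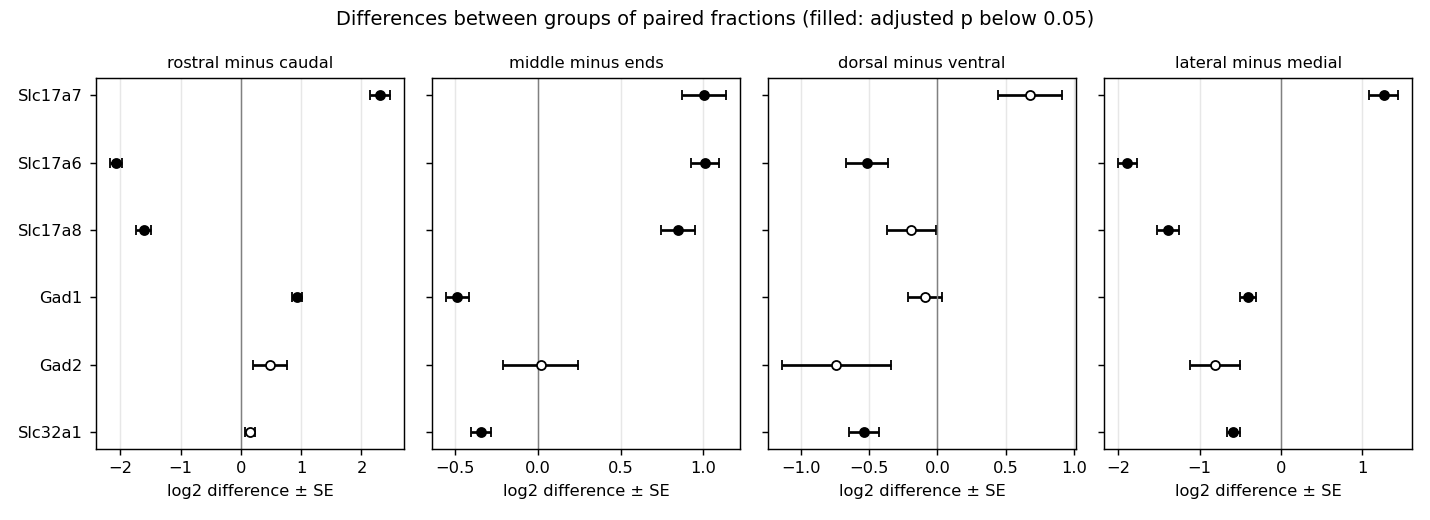
Difference between groups of paired fractions (log2, point ± SE from limma) for the 6 genes, 1 panel per comparison, with filled points where the adjusted p was below 0.05. Slc17a7 and Slc17a6 lie on opposite sides of 0 in the rostral (2.31 and −2.07), the lateral (1.26 and −1.89) and the dorsal comparison (0.68, not called, and −0.52), and on the same side in the middle of the coronal axis (1.00 and 1.01).

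The log ratio of Slc17a7 to Slc17a6, in which the scaling of an array cancels, was tested directly. Its zero is arbitrary, since the probes differ in strength, and only its changes are given. It ran from −6.64 in C1 to 2.81 in C11, and from −4.84 in Co1 to 2.34 in Co12. In the sagittal plane it went from 2.46 in S1 down to −1.75 in S6 and back to 1.91 in S9, and in the horizontal plane from 1.08 in H1 to −0.82 in H4 and from 1.50 in Ho1 to −0.79 in Ho5. Over the 28 pairs this ratio had an F of 27.2 (adjusted p = 1.05e-12, limma). It was higher rostrally by 4.38 ± 0.23, laterally by 3.15 ± 0.25 and dorsally by 1.19 ± 0.32 (adjusted p of 1.90e-16, 6.35e-11 and 0.00990, limma). In the separate mice the rostral difference was 4.87 in C and 3.89 in Co, the lateral 3.51 in S and 2.80 in So, and the dorsal 1.34 in H and 1.05 in Ho.

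When the 28 pairs are ranked by their mean level, Slc17a7 was highest in c11 (2.27) and lowest in c1 (−2.79), and Slc17a6 was highest in c1 (2.67) and lowest in c11 (−0.30). Most neighbors in these orders could not be told apart: of the 27 steps, the values of both mice overlapped in 24 for Slc17a7, 23 for Slc17a6, 24 for Slc17a8, 25 for Gad1, 26 for Gad2 and 23 for Slc32a1. The clear steps of Slc17a7 were between s9 and s2, between s5 and c3, and between c2 and c1, and those of Gad1 included the step from the rostral pair c12 to s5.

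The probe of Slc17a8 followed Slc17a6 closely. It was highest in C1 (−0.37), Co1 (−0.76), H4 (−0.75), Ho5 (−0.78), S6 (−0.56) and So6 (−0.86), and these are also the peak fractions of Slc17a6 in all 6 series. It was lowest in C12 (−2.92) and Co16 (−3.51). Its correlation with Slc17a6 lay between 0.91 in H and 0.98 in So. After each series' mean was subtracted, Slc17a6 was the gene most like Slc17a8 and the reverse, among 11135 genes measured on all 61 arrays, with r = 0.96. The log ratio of Slc17a8 to Slc17a6 still passed the test, with F = 4.19 (adjusted p = 0.000383, limma), being higher rostrally by 0.46 ± 0.13 (adjusted p = 0.00347, limma). Its groups overlapped, at −3.51 to −2.25 rostrally and −3.45 to −3.11 caudally, and the difference was 0.65 in C and 0.26 in Co. In every one of the 13 coronal and 6 horizontal pairs, the level of Slc17a8 was lower in the oblique mouse, by 0.38 ± 0.27 and 0.13 ± 0.08 (mean ± SD over pairs).

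The second probe of Slc17a8 did not have this layout, so the pattern cannot be ascribed to the transcript without knowing what each probe binds, which was not tested. It is the dimmer one, with a mean signal of 73.9 units against 473, and it was well above background in 56 of 61 fractions, the exceptions being C13, Co3, Co14, Co15 and So1. It was highest in C10 (−2.69), C5 (−2.84) and C9 (−3.00) and lowest in C13 (−7.17) and Co15 (−6.88). Its correlation with the brighter probe was 0.17 in C, 0.31 in Co, 0.40 in H, 0.08 in Ho, 0.56 in S and 0.52 in So. Both probes were lower laterally (−1.39 ± 0.14 and −0.71 ± 0.21, adjusted p of 5.41e-09 and 0.0141, limma) and higher in the coronal middle (0.85 ± 0.10 and 1.49 ± 0.16, 7.44e-08 and 6.47e-09). From caudal to rostral, however, the dimmer probe differed by 0.37 ± 0.19 (adjusted p = 0.119, limma) against −1.61 for the brighter one. From ventral to dorsal it was lower by −0.91 ± 0.27 (adjusted p = 0.0227, limma), where the brighter one differed by −0.19 ± 0.18 (adjusted p = 0.623). The second probes of Slc17a6 and Gad1 matched their first, with r of 0.98 in each case over the 61 and 60 fractions measured.

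**Figure D4:**
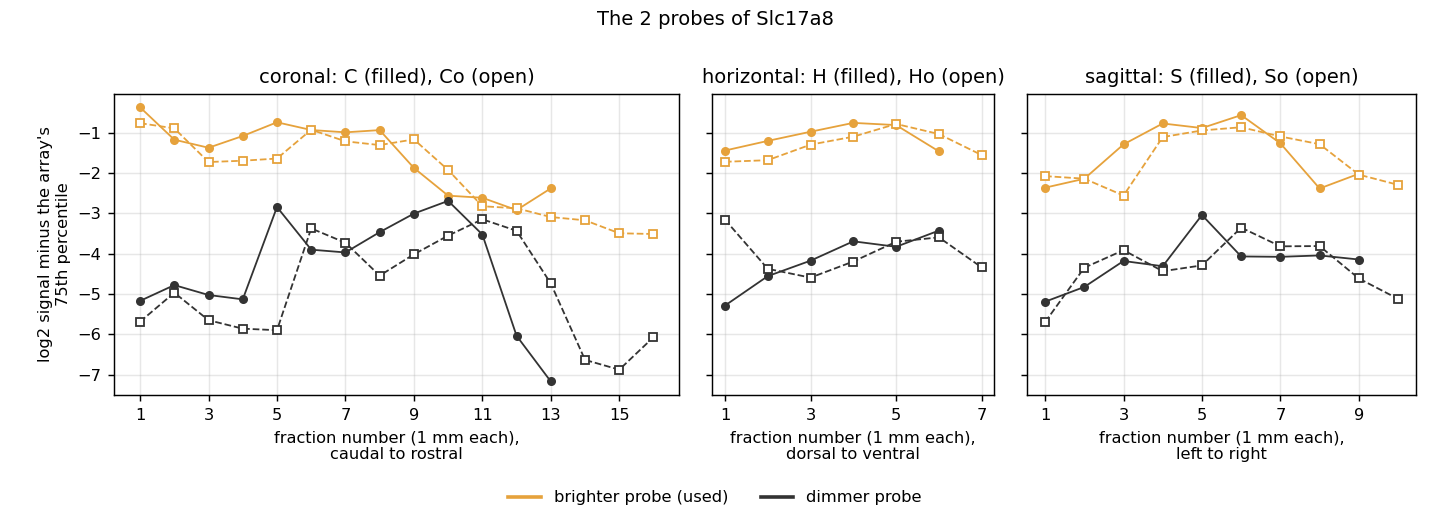
Level of both Slc17a8 probes (log2 signal minus the array's 75th percentile) by fraction number, orange for the brighter probe and black for the dimmer, with filled points for C, H and S and open points for Co, Ho and So. Along the coronal axis the orange curves fall from −0.37 in C1 to −2.92 in C12, while the black curves peak at −2.69 in C10 and drop to −7.17 in C13.

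Slc32a1 spanned 1.89 (log2) over all 61 fractions, Gad1 2.46 and Gad2 3.09, against 6.23 for Slc17a7, 3.30 for Slc17a6 and 3.14 for Slc17a8. The span of Slc17a7 was that of the C mouse, and it was 4.08 in Co. Horizontally, Slc32a1 spanned more than Slc17a7 (1.26 against 0.89 in H, 1.18 against 0.93 in Ho), and less in C, Co, S and So. Gad1 was between 2.41 and 3.38 in C1 to C11 and rose to 4.67 in C12 and 4.74 in C13. In Co it was between 2.49 and 3.80 up to Co13 and then 4.88, 4.84 and 4.59 in Co14, Co15 and Co16. These fractions lie at the rostral end, where Doc2g of the olfactory bulb peaked (in C13 and Co15), and they stood above every other fraction of the 61. The lowest Gad1 levels of the series were at the caudal end (2.41 in C1 and 2.49 in Co1).

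Slc32a1 was highest in C13 (7.11), Ho6 (6.78), Co15 (6.71), H5 (6.68), S7 (6.56) and So5 (6.54), and lowest at the dorsal and lateral borders, in H1 (5.43), Ho1 (5.60), S1 (5.21) and So1 (5.65). In the coronal series its lowest values were 5.73 in C7 and 5.68 in Co8, beside the thalamic peak, where Slc17a6 was high. It was correlated negatively with Slc17a7 in all 6 series, with r from −0.94 in So to −0.21 in C. With Slc17a6 it was correlated positively in the 4 horizontal and sagittal series (0.75 in S to 0.98 in H) and negatively in the coronal ones (−0.46 in C and −0.11 in Co).

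**Figure D5:**
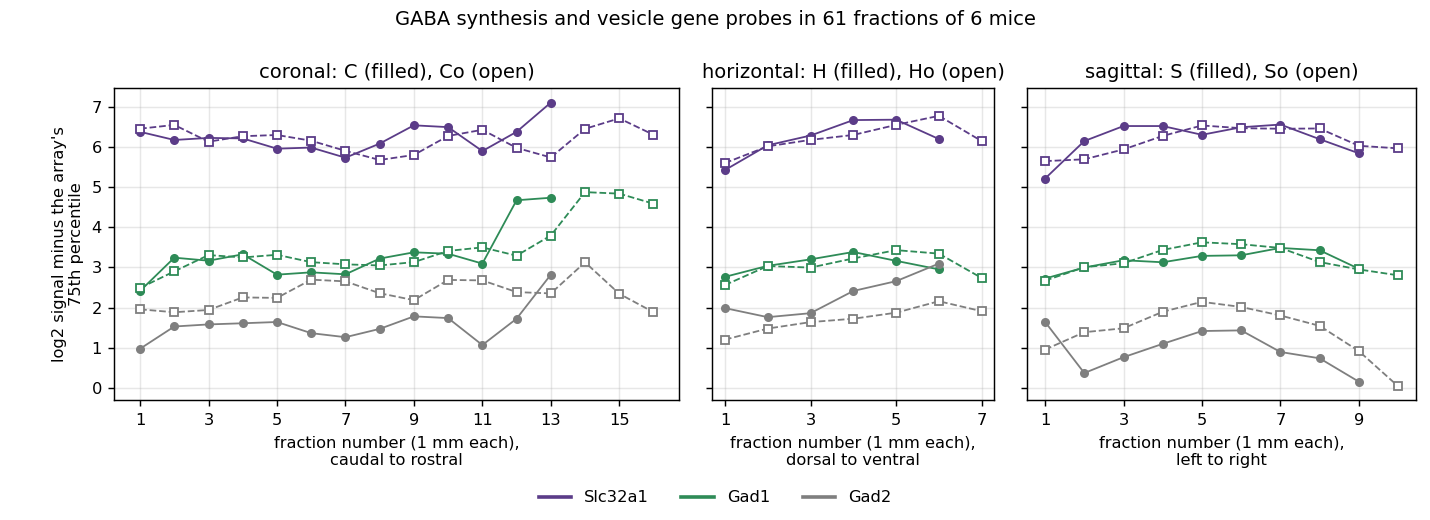
Level of the probes of Slc32a1 (purple), Gad1 (green) and Gad2 (grey), in log2 signal minus the array's 75th percentile, against fraction number in the 3 planes, with filled points for C, H and S and open points for Co, Ho and So. Gad1 steps up to 4.67 in C12 and 4.88 in Co14, and the grey curves of Gad2 lie apart between the mice of a plane (means over the coronal pairs of 1.58 in C and 2.42 in Co).

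Gad2, the decarboxylase found mainly at nerve endings, was less regular. It ranged from 0.04 in So10 to 3.13 in Co14. The oblique mouse lay above the other in 12 of 13 coronal pairs (by 0.84 ± 0.49, mean ± SD over the pairs) and in 7 of 9 sagittal pairs (0.53 ± 0.52), and below it in all 6 horizontal pairs (−0.50 ± 0.39). The offsets compare with differences of 0.48 to 0.81 in size along the 3 axes. With 1 mouse per series and mostly separate scan days, mouse and scan day cannot be told apart in the coronal plane. H and Ho were scanned on the same day. Some single fractions were scanned apart from their series. S1, scanned with the So series, had 1.64 against 0.15 to 1.43 in S2 to S9. C13, scanned with the horizontal series, had 2.82 against 0.97 to 1.78 in C1 to C12. Both are end fractions, and Doc2g peaked in C13, so position and scan cannot be told apart in them. The part of the scan in these values was not tested.

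In the horizontal plane Gad2 was lowest in dorsal fractions, H2 (1.76) and Ho1 (1.20), and highest in ventral ones, with 2.66 in H5 and more in H6, and 2.16 in Ho6. Its coronal peaks were 2.82 in C13 and 3.13 in Co14, as for Gad1. Its correlation with Gad1 was 0.79 in C, 0.31 in Co, 0.05 in H, 0.66 in Ho, −0.01 in S and 0.87 in So, so that it differed widely between the mice. The log ratio of Gad1 to Gad2 passed the test at F = 2.34 (adjusted p = 0.0233, limma) but not without S9 or without So10 (adjusted p of up to 0.0543), nor with fractions paired by number (F = 1.42, adjusted p = 0.267, limma). The same test was passed by that of Gad1 to Slc32a1 (F = 8.77, adjusted p = 3.39e-07, limma), which was higher rostrally by 0.78 ± 0.09 (adjusted p = 2.44e-08, limma). The ratio of Gad2 to Slc32a1 did not pass (F = 1.50, adjusted p = 0.189), and passed with the mouse as a block (F = 5.42, adjusted p = 5.10e-05). The F with the block also counts differences between the whole series S, Co and Ho. The mean of the 3 GABA genes changed relative to Slc17a7 (F = 12.8, adjusted p = 5.52e-09) and relative to Slc17a6 (F = 17.8, adjusted p = 1.29e-10).

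The genes whose layout over the 61 fractions was most like that of each member, after each series' mean was removed, are given with Pearson's r. Slc17a7 was most like Olfm1 (0.94), Slc6a17 (0.93), Slc7a8 (0.93), Baiap2 (0.92) and Dlgap1 (0.92). Slc17a6 was followed after Slc17a8 by Ttc39a (0.91), Il33 (0.91), Cd83 (0.90) and Rbms3 (0.89), and Slc17a8 after Slc17a6 by Chrna4 (0.92), Cd83 (0.91), Fgf18 (0.90) and Il33 (0.90). Gad1 was most like Gdpd5 (0.92), Ush1g (0.91), Ccdc134 (0.91), Pcbp3 (0.91) and Ung (0.91), and Slc32a1 like Ap1s2 (0.86), Crybg3 (0.85), Xrcc3 (0.83), Ngfr (0.82) and Lrrc1 (0.82). For Gad2 the highest r was 0.71, with Klf12, followed by BC052040 (0.67), Clip4 (0.67) and Xpr1 (0.66). By this measure Slc32a1 ranked 758th of 11135 among the genes like Gad1 (r = 0.54) and Gad2 ranked 1138th (r = 0.46). The fractions share mice and slides, and these values carry no p.

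Of the 6 genes of GABA uptake and breakdown, 4 varied over the pairs, where 61.2% of all probes did, and all 4 were lower in at least one of the comparisons and higher in none. Abat, the GABA transaminase, was lower rostrally (−0.32 ± 0.05), dorsally (−0.63 ± 0.07) and laterally (−0.53 ± 0.05), with adjusted p (limma) of 3.76e-06, 1.65e-07 and 1.39e-08. Aldh5a1, the next enzyme of that route, was lower rostrally by −0.38 ± 0.07 (adjusted p = 7.55e-05, limma). Slc6a12, a betaine and GABA transporter, was lower rostrally by −1.04 ± 0.18 (adjusted p = 2.02e-05, limma). Its highest level of all fractions was nevertheless in Co16 (1.23), the most rostral fraction of Co, which is in no pair and so outside this comparison. In C it was highest in C1 (0.66). Slc6a11, a glial GABA transporter, did not pass over the pairs (adjusted p = 0.142) but was lower laterally by −1.86 ± 0.52 (adjusted p = 0.00973, limma). In all, 3 of the 6 were lower rostrally (median difference −0.25, against −0.11 over all probes), 4 in the middle, 2 dorsally and 4 laterally, where 27.8%, 19.5%, 8.44% and 10.5% of all probes were lower, and 0 were higher in any of these.

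Of the 12 genes of glutamate supply and uptake that were tested, 10 varied over the pairs, beside 61.2% of all probes. Slc1a6, the glutamate transporter of Purkinje cells, changed most: its level ran from 1.56 in C12 to 5.97 in Co4, and it was lower rostrally by −3.53 ± 0.18 (adjusted p = 1.94e-16, limma). Slc1a1, a neuronal glutamate transporter, was higher rostrally by 1.08 ± 0.06 (adjusted p = 5.56e-15, limma). Gls2, a glutaminase, was lower rostrally by −0.92 ± 0.07 (5.08e-12), and Slc38a1, a neuronal glutamine transporter, by −0.74 ± 0.08 (9.89e-10). Glul, the glutamine synthetase of astrocytes, was higher rostrally by 0.26 ± 0.11 (adjusted p = 0.0454) and the astrocyte transporter Slc1a2 was higher laterally by 0.46 ± 0.11 (0.00199). In all, 5 of the 12 were higher and 5 lower rostrally, with a median difference of 0.01 (−0.11 over all probes), 2 higher and 6 lower in the middle, 2 higher dorsally, and 1 higher and 3 lower laterally. The shares of all probes were 19.9% higher and 27.8% lower rostrally, 15.5% and 19.5% in the middle, 5.77% and 8.44% dorsally, and 9.08% and 10.5% laterally. From left to right, 0 of either list were called.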

How the data were processed

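The authors deposited, for each of the 61 arrays, the intensity of every spot from Agilent Feature Extraction 9.1.3.1, background-subtracted and not normalized between arrays, and a table of the same intensity values normalized per chip on the linear scale. In that table each column is the mean signal divided by 1 constant per array (within 0.1% for at least 99.9% of probes). Total RNA (500 ng) was labeled with Cy3. The number of arrays limits the precision.

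Here log2 values of the non-control spots were averaged per probe, without outlier-flagged spots (0.0869%), and each array's 75th percentile was subtracted. Of 41174 probes, 22951 were named through their RefSeq accession. The 36573 probes with a spot well above background on at least 1 array entered the fit, of which 54 had no value in some pair. Least squares with limma 3.58.1 (squeezeVar, R 4.3.3) gave moderated F tests and contrasts over the 28 pairs, with Benjamini-Hochberg adjustment over all probes. The study's methods use a one-way analysis of variance over these pairs, which was an alternative. Figures and correlations used Python 3.11.15.

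The members, lists, tests and region markers were chosen with earlier results of these data known. The genes named are the 6 members, 2 lists of genes of GABA and glutamate handling, and the 5 genes most like each member in Pearson's r. Some genes that this rule names are not reported here.

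Pairs of the same 2 mice deviated together: among 129 combinations of pairs within a plane the median correlation of deviations from pair means was 0.279 (114 above 0.1), and among 249 combinations between planes it was −0.026 (7 above 0.1). The mouse was therefore added as a block in an alternative. The alternatives were scaling, the authors' table, normexp with quantile normalization, filters on dim probes, blocks for mouse, slide (consensus correlation 0.539) and scan day, pairing by number, single planes, a spline of position, other probes and leaving out each array. The fits were tested on simulated data. Promoter coordinates are those of RefSeq on build GRCm38.p6.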

Additional observations from a re-analysis of the deposited data

How the results depend on the processing

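Of 613 values of the 6 genes and their ratios under the alternatives other than leaving out single arrays, 550 kept their direction and side of the threshold, 23 passed it newly, 16 no longer passed, 21 correlations moved and 3 reversed. The reversed values were the rostral difference of Slc32a1 with pairs taken by number (−0.013), and, with the other probe of Slc17a8, its rostral difference (0.37) and its correlation with Slc17a6 in Ho (−0.13). With the mouse as a replicate block, 9919 probes and 4 of the genes were called dorsally, 12125 probes laterally and 566 between left and right. Its changed calls stand beside the results, and it changed no other call of these genes. With scan day as a block the counts were 10573 probes and 4 genes dorsally, 12330 laterally and 843 between left and right. With the slide as a random block 1 gene was called dorsally and 0 probes between left and right. Pairs by number gave 4616 probes and 3 genes in the middle (without Gad1 and Slc32a1), 2913 dorsally, 4028 laterally and 5 between left and right. Probes well above background on all arrays gave 14708 for variation and 22 between left and right. Single planes gave 13779 (coronal), 4609 (horizontal) and 2392 (sagittal) probes, with 3 ratios passing for the horizontal pairs and 4 for the sagittal pairs. Leaving out single arrays gave 3182 to 5352 probes dorsally (lowest without H2), 1 to 3 genes dorsally, 46 to 280 probes between left and right, and −0.11 to 0.15 for Gad2 in the middle, which thus reversed. Results passed newly without C12 (variation of Gad2, adjusted p = 0.0433, limma), without Co15 (rostral Slc32a1, 0.0362), without So3 or S4 (lateral Gad2, 0.0347 at the lowest), and without C1, Co2, C5, Co6, C10 or Co11 (dorsal Slc17a7, 0.00625 at the lowest). The arrays named for dorsal Slc17a7 are coronal. They enter its test only through the spread pooled over all planes and the adjustment over probes. Dorsal Slc17a7 also passed with other scalings (adjusted p of 0.0300 to 0.0346, limma), and the cause of the other changes was not tested. Keeping outlier-flagged spots was added after seeing the data and changed no call.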
